A study of Mus musculus with 40 samples.

Results

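The enzymes described here are the phase I and phase II xenobiotic metabolism families of the mouse duodenum: cytochromes P450 (Cyp), UDP-glucuronosyltransferases (Ugt), sulfotransferases (Sult), glutathione S-transferases (Gst) outside the alpha class, aldehyde dehydrogenases (Aldh), aldo-keto reductases (Akr), alcohol dehydrogenases (Adh) and carboxylesterases (Ces). Members were taken by the gene symbol of the deposited probe table alone, leaving out Cyp2a5, Cyp2c29, Ces1g and Aldh3a2. The rule found 85 probes for 83 of the 2756 symbols in the table. The table has 3045 probes, and 2541 of them were tested. Of the member probes, 57 passed the filter on low counts and were tested, and 28 did not pass.

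Male, wild-type B6C3F1 mice were exposed for 28 days, and formalin-fixed, paraffin-embedded duodenum was assayed by TempO-Seq, in which pairs of short oligonucleotides that anneal to a chosen transcript are ligated, amplified and counted. The 40 libraries fall into 5 unexposed controls and 5 exposed groups of 7. Hexavalent chromium, Cr(VI), was given at 180 ppm in drinking water. Captan was given in the diet at 6000 or 12000 ppm, and folpet in the diet at 6000 or 16000 ppm. Whether each library is a separate mouse is not stated in the labels; the p-values then describe only how these libraries spread, which may be technical. Captan and folpet are fungicides that both carry a trichloromethylthio group on the nitrogen of a cyclic imide; folpet has an aromatic ring where captan has a partly saturated one.

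As background, phase I enzymes oxidise, reduce or hydrolyse foreign compounds, and phase II enzymes join the products to glucuronic acid, sulfate or glutathione for export. Cytochromes P450 draw their electrons from the reductase Por. Enterocytes of the proximal small intestine hold many of these enzymes and form the first barrier to swallowed chemicals, and several of the genes are known targets of the receptors CAR, PXR, AhR and PPARα or of the factor NRF2.

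Total counts per library ran from 1763440 to 7904819. Enterocyte markers such as Fabp2 and Fabp1 were above 0 in all 40 libraries, as the labelled tissue would have them, but transcripts of pancreatic acinar cells took up to 81.0% of a library's counts. That share was over 50% in 7 libraries: replicates 4 and 5 of the controls, 4 of the Cr(VI) group (replicates 2, 3, 4 and 7), and replicate 7 at captan 12000 ppm. Control replicate 5 also had the lowest summed level of 6 enterocyte markers, 17237 CPM (counts scaled to a common library size with edgeR's TMM factors). The mean of that sum was 46058 ± 16719 CPM in controls (SD, n = 5), 67547 ± 6364 with Cr(VI), 69893 ± 8044 and 78703 ± 8786 with captan 6000 and 12000 ppm, and 67876 ± 19830 and 80993 ± 7104 with folpet 6000 and 16000 ppm (n = 7 each). Of the 6 markers, 3, 3, 4, 2 and 4 rose in these exposed groups, in that order. The mean summed level of 8 immune genes was 17071 ± 7013 CPM in controls (n = 5) and between 3623 and 7366 CPM in the exposed groups, where 1 to 5 of the 8 fell. Cd74 made up most of this sum, with a mean of 6474 CPM over all libraries against 215 CPM for H2-Aa, the next highest. The mean summed level of 6 smooth muscle genes was 2232 ± 719 CPM in controls. It lay between 1406 and 1622 CPM in the exposed groups, where 1 to 3 of the 6 fell. Of 7 stroma genes 1 or 2 fell in each fungicide group. The crypt and proliferation sum was 823 ± 143 CPM in controls and 463 ± 109.7 CPM with Cr(VI), where 2 of 9 tested probes fell. The part of these cell types in the members' changes was not tested. Fewer cells of a type and less RNA per cell cannot be told apart in bulk tissue. Of the hepatocyte markers in the table, Fgb and Hp were at 0 in all 40 libraries, Fgg was above 0 in 1, Ttr in 37 (mean 24.4 CPM) and Cps1 in 40 (mean 52.4 CPM). Of the 2 tested, Ttr and Cps1, 1 rose with captan 6000 ppm, captan 12000 ppm and folpet 6000 ppm; its part in the members' changes was not tested.

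Gstp1, Aldh2 and UGT2B15 rose at both doses of both fungicides, most other members did not pass the test, and 2 members passed it with Cr(VI). Of 9 other settings of the fit, described below, captan 12000 ppm passed in 3 for Gstp1, 4 for UGT2B15 and 7 for Aldh2. A member is called, or said to rise or fall, at a Benjamini-Hochberg adjusted p under 0.05 in edgeR's quasi-likelihood test, adjusted over the 2541 tested probes of a comparison, and fold changes are log2 values ± their standard error. With Cr(VI), 1 of 57 tested members rose and 1 fell, where 5.94% of all tested probes were called. With captan 6000 ppm, 6 members were called, all higher (5.16% of all probes called), and 24 members had an unadjusted p under 0.05. How many of all tested probes had an unadjusted p under 0.05 was not counted, here or below. With captan 12000 ppm, 11 rose and 1 fell (6.18% of all probes called). With folpet 6000 ppm, 5 rose and 1 fell (6.22% of all probes called). With folpet 16000 ppm, 13 rose and 2 fell (12.6% of all probes called). The share of members called was thus 3.51%, 10.5%, 21.1%, 10.5% and 26.3%. For calls of higher level alone, the background over all probes was 2.95%, 3.78%, 4.64%, 4.60% and 7.91%, and for lower level alone 2.99%, 1.38%, 1.53%, 1.61% and 4.68%.

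The median log2 fold change over the 57 tested members was 0.04 with Cr(VI), 0.68 with both captan doses, 0.45 with folpet 6000 ppm and 0.72 with folpet 16000 ppm. Over all tested probes it lay between -0.05 and 0.01. The members' summed CPM was 1.13 times the control mean with Cr(VI), 1.63 and 1.71 times with captan 6000 and 12000 ppm, and 1.56 and 1.74 times with folpet 6000 and 16000 ppm; scaled by library totals alone, the Cr(VI) ratio was 0.941. Gstp1 alone held from 19.995% (control replicate 1) to 41.4% (folpet 16000 ppm replicate 2) of a library's member counts. Cyp2b10 drew the next most counts over all libraries. The sums thus lean on these probes and do not measure a rise shared by all members. The 5 comparisons with control share the same 5 control libraries. Over them, 20 members were called at least once, 16 of them only higher and 4 only lower, and 37 were never called. Of all 2541 tested probes 16.8% were called at least once, 9.60% only higher and 7.12% only lower. No member was called in all 5 comparisons by edgeR. The members Gstp1, Aldh2, UGT2B15 and Ces2b were each called higher in 4.

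**Figure D1:**
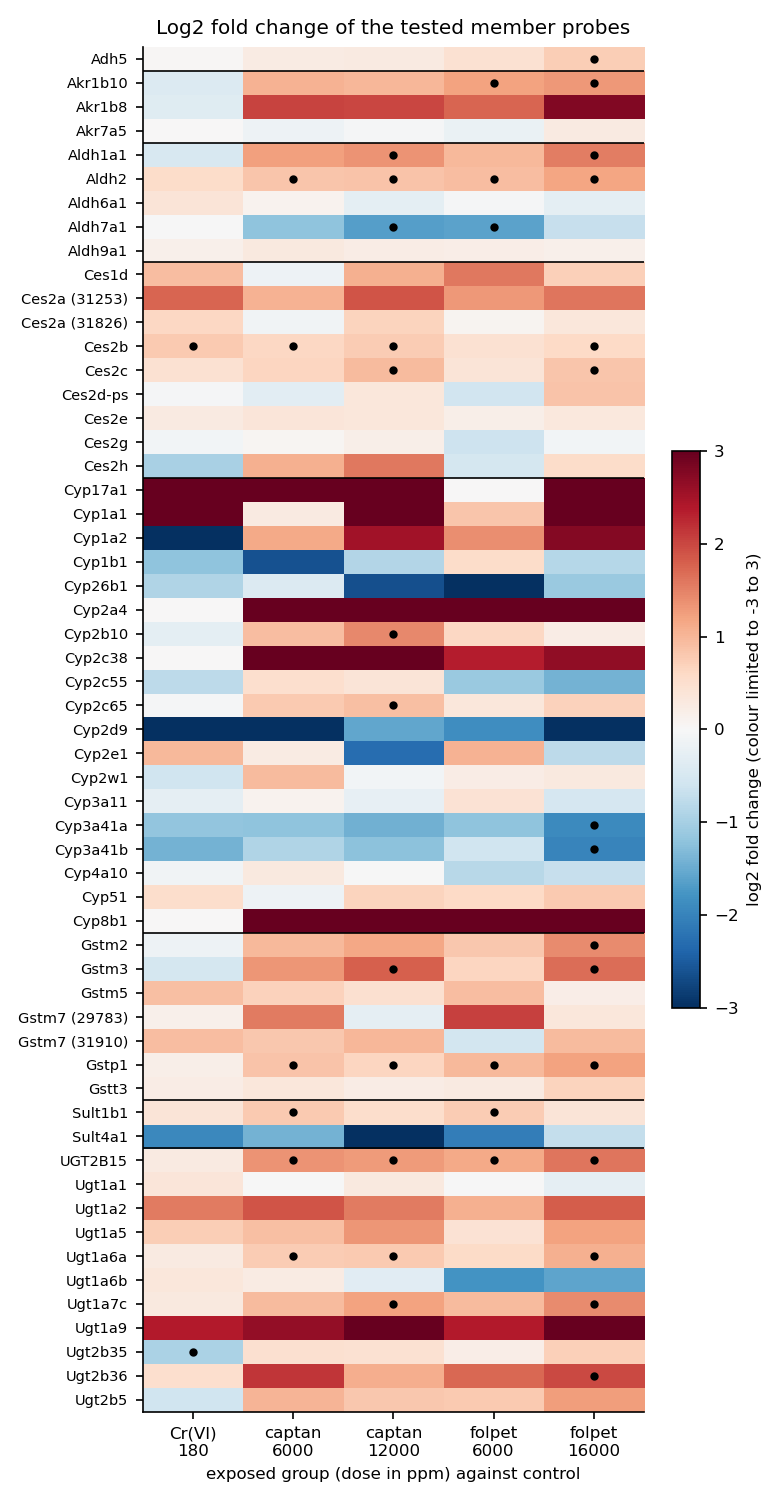
Log2 fold change of the 57 tested member probes (rows, by family) in each exposed group against control (columns, dose in ppm); colours are limited to -3 and 3 and a dot marks an edgeR adjusted p under 0.05. Every family has a dot in the fungicide columns. Most lie in the Ugt, Gst, Aldh and Ces rows, which are more numerous than those of Adh, Akr and Sult. The Cr(VI) column has 2. The darkest rows, such as Cyp17a1, Cyp2a4 and Cyp8b1, are probes near 0 CPM without a dot.

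Among the 19 tested cytochromes P450, the heme enzymes that oxidise drugs, steroids and fatty acids, Cyp2b10 and Cyp2c65 rose with captan 12000 ppm and Cyp3a41a and Cyp3a41b fell with folpet 16000 ppm. The other 15 tested P450s were never called, where 16.8% of all tested probes were called at least once. Cyp2b10, the textbook target gene of the receptor CAR, drew the most counts of the P450 probes, although counts of different probes do not rank transcripts. It stood at 3641, 2669, 3256, 4150.4 and 904 CPM in control replicates 1 to 5. Its lowest, median and highest values with captan 12000 ppm were 2432, 10019 and 13419 CPM. The group was split: replicates 1, 2 and 6 held 2543, 2432 and 4226 CPM, within or just above the control range, and the other 4 libraries held at least 10019 CPM. The log2 fold change was 1.45 ± 0.35 (edgeR adjusted p = 0.00895), with 5 of 7 libraries above the control mean. Cyp2b10 with captan 6000 ppm ran from 2542 over a median of 5418 to 8094 CPM (log2 0.92 ± 0.35, adjusted p = 0.117), and with folpet 16000 ppm from 2237 over 3343 to 4991 CPM (log2 0.22 ± 0.34, adjusted p = 0.798).

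Cyp2c65, a P450 of the mouse gut, followed the same split. Its control values were 1265, 905, 993, 1045 and 692 CPM. Captan 12000 ppm libraries ran from 891 over a median of 2104 to 2825 CPM, and replicates 1, 2 and 6 again lay within the control range, at 1069, 1123 and 891 CPM. The log2 fold change was 0.91 ± 0.25 (edgeR adjusted p = 0.0207). The call was lost without control replicate 5 (log2 0.81, adjusted p = 0.0780) and without captan 12000 ppm replicate 3 (log2 0.78, adjusted p = 0.0672). The median with folpet 16000 ppm was 1549.6 CPM (log2 0.68 ± 0.25, adjusted p = 0.0661).

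The upstream sequence of Cyp2c65 is shown because it holds a rare match that it shares with the pair of P450s that fell. It is the RefSeq promoter window (GRCm38.p6, chr19:39060756-39061005, plus strand, 250 bases ending at the base before the annotated start), read 5′ to 3′, with the match in capitals.
Cyp2c65: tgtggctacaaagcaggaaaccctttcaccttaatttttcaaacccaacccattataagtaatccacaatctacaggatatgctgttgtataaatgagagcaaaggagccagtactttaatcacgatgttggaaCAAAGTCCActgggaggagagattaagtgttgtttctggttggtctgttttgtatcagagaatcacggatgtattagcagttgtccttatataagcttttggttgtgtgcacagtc
The capitals mark CAAAGTCCA, letters of the kind bound by the liver and gut factor HNF4, searched on both strands. They occur in 0.384% of the 32851 mouse windows of the same length and in 5 of the 45 tested member genes that have a window (11.1%): Cyp2c65, Cyp3a11, Cyp3a41a, Cyp3a41b and Cyp8b1. All are P450s. A match is a description of the letters and not of a bound site.

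Cyp3a41a and Cyp3a41b belong to the Cyp3a subfamily, the family of the main human drug-metabolising P450. Cyp3a41a stood at 1511, 241, 209.6, 49.9 and 145 CPM in control replicates 1 to 5, so replicate 1 was far above the others. Folpet 16000 ppm libraries ran from 80.7 over 111 to 147 CPM, inside the range of the other controls. The log2 fold change of -1.90 ± 0.50 (edgeR adjusted p = 0.00952) rested on control replicate 1, without which it was -0.47 (adjusted p = 0.510). Cyp3a41b behaved alike, with control values of 681, 152, 85.3, 40.01 and 169 CPM and 28.0, 54.0 and 91.6 CPM as lowest, median and highest with folpet 16000 ppm. Its log2 fold change was -1.97 ± 0.56 (adjusted p = 0.0153) and -0.93 without control replicate 1 (adjusted p = 0.266). Most of the Cyp3a41a transcript cannot be told from its relative: 93.7% of its 50-base windows occur unchanged in Cyp3a41b, so these probes may read both genes.

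The likeness of the pair extends upstream, where the RefSeq windows (GRCm38.p6, chr5:145720137-145720386 for Cyp3a41a and chr5:145584731-145584980 for Cyp3a41b, both on the minus strand) differ at 1 of 250 bases. Both are shown 5′ to 3′ with the same CAAAGTCCA match in capitals.
Cyp3a41a: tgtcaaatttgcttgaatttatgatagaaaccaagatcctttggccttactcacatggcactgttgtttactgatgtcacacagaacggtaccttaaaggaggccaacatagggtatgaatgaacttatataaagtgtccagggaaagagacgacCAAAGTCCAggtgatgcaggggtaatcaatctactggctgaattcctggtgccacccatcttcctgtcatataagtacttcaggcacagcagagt
Cyp3a41b: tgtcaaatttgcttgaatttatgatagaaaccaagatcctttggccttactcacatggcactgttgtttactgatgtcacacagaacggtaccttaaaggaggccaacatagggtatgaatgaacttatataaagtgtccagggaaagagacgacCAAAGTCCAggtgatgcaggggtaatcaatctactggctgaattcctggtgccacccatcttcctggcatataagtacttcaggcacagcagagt
Cyp3a11, a textbook PXR target that shares this match, was called in none of the comparisons and ranged from 165 to 853 CPM in controls and from 128 to 1149.9 CPM in the exposed groups. Its unadjusted p was under 0.05 for the folpet dose step alone (log2 -0.93, 95% interval -1.65 to -0.22, adjusted p = 0.225).

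Cyp1a1, the textbook target gene of the receptor AhR, was low in controls, at 4.05, 0, 34.0, 13.0 and 0 CPM, and was called in no comparison. All 7 folpet 16000 ppm libraries lay above the highest control, from 47.9 over a median of 116 to 705 CPM, yet the spread left the log2 fold change at 4.82 ± 1.91 (edgeR adjusted p = 0.0974). Replicate 7 at captan 12000 ppm reached 2236 CPM and the other libraries lay between 0 and 151 CPM (log2 5.06 ± 1.93, adjusted p = 0.120). That replicate also had 53.4% of its counts in pancreatic acinar genes, and the part of this in its Cyp1a1 level was not tested. With Cr(VI), replicates 2 and 4 held 302 and 307 CPM, replicate 5 held 14.3 CPM and the other 4 were at 0. Cyp1a1 ran from 0 to 45.3 CPM with captan 6000 ppm and from 0 to 95.8 CPM with folpet 6000 ppm.

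Other textbook P450s were not called. Cyp4a10, a PPARα target, had a median of 24.0 CPM in controls and between 14.2 and 25.6 CPM in the exposed groups. Cyp51, which makes sterols, had a control median of 23.2 CPM and exposed medians from 25.8 to 54.5 CPM, with adjusted p of at least 0.294. Cyp2e1 and Cyp1b1 reached at most 48.3 and 6.10 CPM in any library. Fitted fold changes of P450 probes near 0 CPM, such as Cyp17a1, Cyp2a4, Cyp2d9 and Cyp8b1, are not read here.

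**Figure D2:**
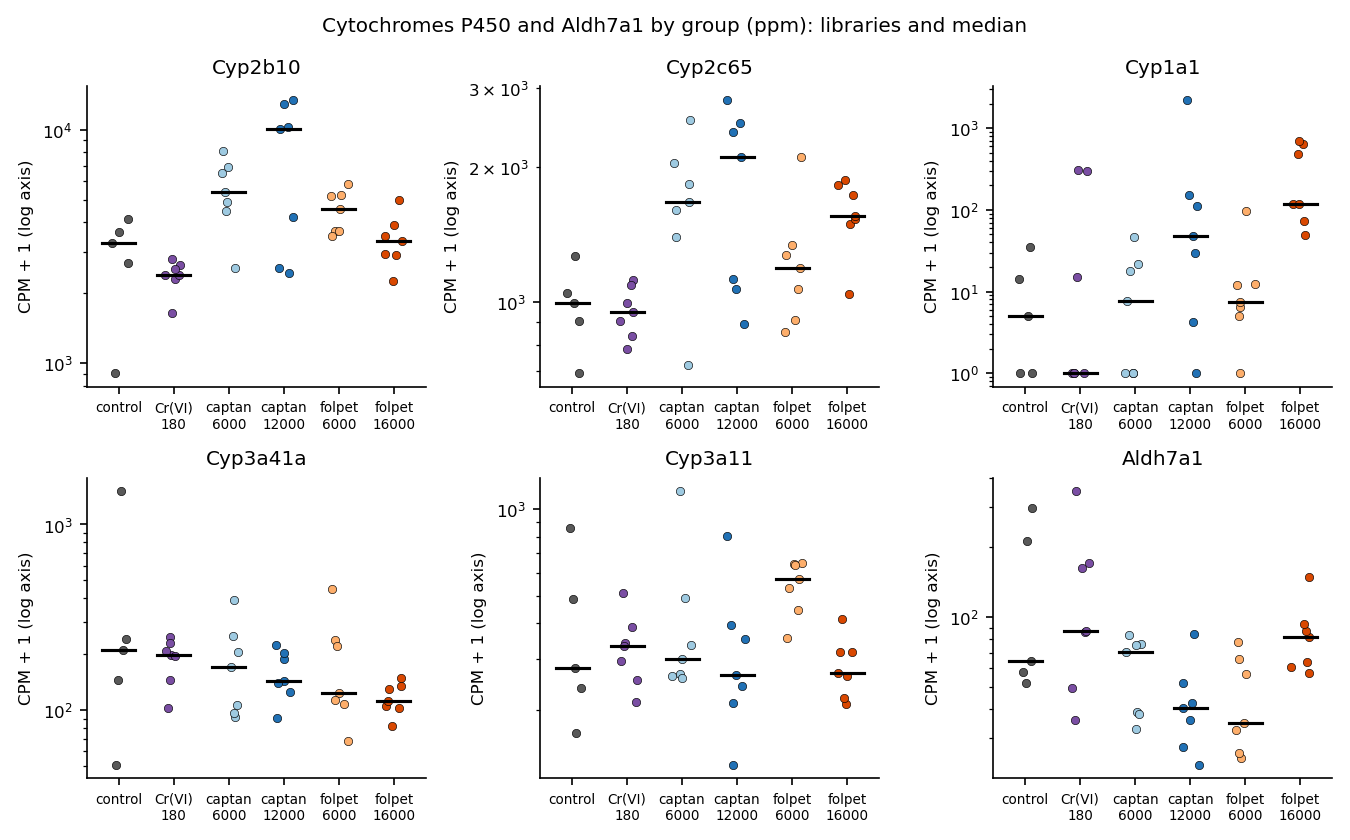
Level of 5 P450s and of Aldh7a1 (CPM + 1, log axis) in each library (points) by exposure group, with the group median as a bar. Cyp2b10 and Cyp2c65 split with captan 12000 ppm into 3 low and 4 high libraries, the Cyp3a41a control at 1511 CPM stands above all others, and Cyp1a1 with folpet 16000 ppm lies above every control.

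Carboxylesterases hydrolyse esters and amides, and those of the Ces2 branch are the main ones of the intestine. Of 9 tested Ces probes, Ces2b and Ces2c were called, where 16.8% of all tested probes were called at least once. Ces2b was the 1 member that rose with Cr(VI). Its control values were 2138, 2040.3, 2253, 2344 and 1358 CPM. With Cr(VI) it ran from 2956 over 3400.3 to 4405 CPM, above every control (log2 0.79 ± 0.18, edgeR adjusted p = 0.00381). Its call with Cr(VI) held without each library in turn. That call was lost with library totals alone (edgeR adjusted p = 0.569) and with the enterocyte marker sum as a covariate (edgeR adjusted p = 0.143). The groups did not overlap with captan 12000 ppm (2382 to 4349 CPM, log2 0.75 ± 0.18, adjusted p = 0.00661) or folpet 16000 ppm (2397 to 3802 CPM, log2 0.59 ± 0.18, adjusted p = 0.0221). At captan 6000 ppm 6 of 7 libraries were above the highest control (log2 0.63 ± 0.18, adjusted p = 0.0270), and with folpet 6000 ppm the change was 0.45 ± 0.18 (adjusted p = 0.141). The lowest control, replicate 5, weighed on these calls. Without it the log2 change was 0.52 with captan 6000 ppm (adjusted p = 0.113) and 0.48 with folpet 16000 ppm (adjusted p = 0.0869). The captan 6000 ppm call was also lost without its replicate 4 (adjusted p = 0.0558) or 7 (adjusted p = 0.0682), and the folpet 16000 ppm call without its replicate 1 (adjusted p = 0.0568).

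Ces2c had control values of 2770.0, 1482, 1629, 1485 and 595 CPM, and all exposed groups overlapped them. It rose with captan 12000 ppm (1904 to 3994 CPM, median 3043, log2 0.94 ± 0.26, edgeR adjusted p = 0.0217) and folpet 16000 ppm (1721 to 3843 CPM, median 2819.8, log2 0.83 ± 0.26, adjusted p = 0.0305). Both calls were lost without control replicate 5 (adjusted p = 0.0807 and 0.110) or control replicate 4 (adjusted p = 0.0515 and 0.0638). The first was also lost without captan 12000 ppm replicate 3 (adjusted p = 0.0570), and the second without control replicate 2 (adjusted p = 0.0611) or folpet 16000 ppm replicate 3, 6 or 7 (adjusted p = 0.0539, 0.0678 and 0.0515). Ces2a has 2 probes, which were called in none of the comparisons. The deeper one ran from 143 to 623 CPM in controls and from 178 to 848 CPM in the exposed groups, and its change with captan 12000 ppm was 0.66 ± 0.36. The shallower probe gave 1.90 ± 0.63 there (adjusted p = 0.0652).

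Among the 5 tested aldehyde dehydrogenases, Aldh2 and Aldh1a1 rose and Aldh7a1 fell. The share called at least once over all tested probes was 16.8%. Aldh2, the mitochondrial enzyme that oxidises acetaldehyde, stood at 1386, 993, 1070.3, 1715 and 628 CPM in control replicates 1 to 5. At folpet 16000 ppm it ran from 2075 over 2689 to 3088 CPM, with no overlap, at a log2 fold change of 1.17 ± 0.19 (2.25-fold, edgeR adjusted p = 7.84e-06). With folpet 6000 ppm it ran from 1959 over 2189.7 to 2524 CPM, also with no overlap (log2 0.93 ± 0.18, adjusted p = 0.000533). The captan ranges at 6000 ppm (1609 to 2925 CPM) and 12000 ppm (1282 to 2619.9 CPM) overlapped the controls, at 0.84 ± 0.18 and 0.85 ± 0.18 (adjusted p = 0.00265 and 0.00190). With Cr(VI) the change was 0.54 ± 0.18 (adjusted p = 0.0649), and all 7 libraries lay above the control mean. All 4 calls of Aldh2 held without each library in turn. Of 9 other settings of the fit, both folpet calls held in 9 and both captan calls in 7.

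Aldh1a1, which oxidises retinaldehyde, stood at 43.4, 54.1, 63.0, 23.8 and 111 CPM in controls. It rose with captan 12000 ppm (52.8 over 137 to 279 CPM, log2 1.35 ± 0.41, edgeR adjusted p = 0.0420) and folpet 16000 ppm (76.0 over 151 to 269.7 CPM, log2 1.53 ± 0.42, adjusted p = 0.0108). Both groups overlapped the highest control. The captan call was lost without any 1 of 7 libraries, namely control replicates 1 to 4 (adjusted p = 0.0786, 0.0740, 0.0590 and 0.118) and captan 12000 ppm replicates 3, 4 and 7 (adjusted p = 0.111, 0.0736 and 0.0524). The folpet call held without each library and in 6 of 9 other settings of the fit.

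Aldh7a1, an enzyme of lysine breakdown, fell with captan 12000 ppm and folpet 6000 ppm. It stood at 50.9, 57.0 and 63.6 CPM in control replicates 1 to 3 and at 212 and 295 CPM in replicates 4 and 5, the controls with acinar shares over 50%. It ran with captan 12000 ppm from 22.0 over 39.3 to 83.6 CPM (log2 -1.66 ± 0.45, edgeR adjusted p = 0.0180) and with folpet 6000 ppm from 23.6 over 33.6 to 76.7 CPM (log2 -1.61 ± 0.45, adjusted p = 0.0211). Both ranges overlapped the controls. With the acinar share as a covariate the changes were 0.08 and -0.24 (adjusted p = 0.973 and 0.792). Without control replicate 5 they were -1.17 and -1.11 (adjusted p = 0.138 and 0.174), and without control replicate 4 they were -1.44 and -1.38 (adjusted p = 0.0606 and 0.0751). The folpet call was also lost without its replicate 1 (adjusted p = 0.0562) or 4 (adjusted p = 0.0517). The plot against the acinar share shows the highest Aldh7a1 levels in the libraries with the largest shares.

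**Figure D3:**
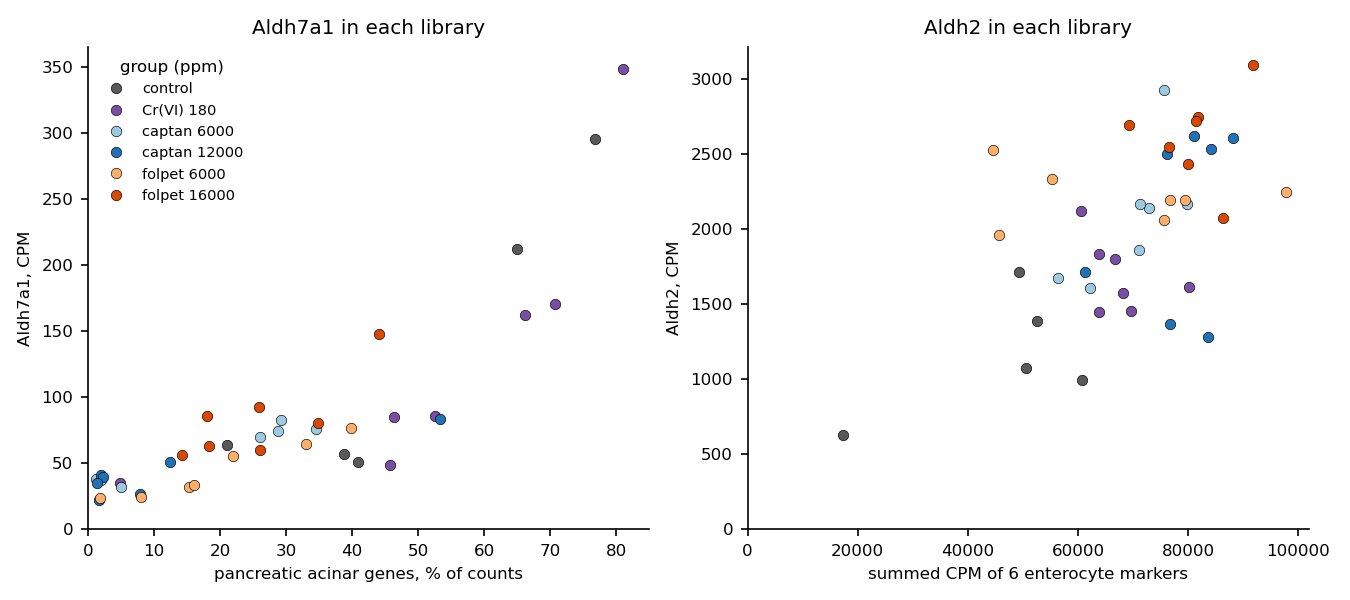
Left, Aldh7a1 level (CPM) against the share of counts in pancreatic acinar genes (%) in each of 40 libraries; right, Aldh2 level (CPM) against the summed CPM of 6 enterocyte markers; colours are groups. The control at 295 CPM Aldh7a1 has an acinar share of 76.9%, and the control at 628 CPM Aldh2 has the lowest enterocyte sum, 17237 CPM.

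Akr1b10 and Akr1b8 are aldo-keto reductases that turn aldehydes into alcohols. Akr1b10 stood at 375, 185, 105, 79.2 and 270.2 CPM in controls. It rose with folpet 6000 ppm (329 over 474 to 673 CPM, log2 1.21 ± 0.36, edgeR adjusted p = 0.0326) and 16000 ppm (237 over 531 to 649 CPM, log2 1.30 ± 0.36, adjusted p = 0.0122), with overlap in both. Captan gave 1.05 ± 0.35 and 1.0 ± 0.35, short of the threshold (adjusted p = 0.0753 and 0.0820). The folpet 6000 ppm call was lost without control replicate 2, 3 or 4 (adjusted p = 0.0591, 0.0831 and 0.0979) or folpet replicate 4 (adjusted p = 0.0538). Akr1b8 was at most at 18.1 CPM in controls and reached a median of 63.6 CPM with folpet 16000 ppm (log2 2.77 ± 1.08, adjusted p = 0.0907). Adh5, which clears formaldehyde bound to glutathione, had control values of 841, 466, 690.3, 1312 and 409.8 CPM. It rose with folpet 16000 ppm (866 over 1318 to 1495 CPM, log2 0.75 ± 0.19, adjusted p = 0.00423), with 4 of 7 libraries above the highest control.

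Glutathione S-transferases join glutathione to reactive compounds. Outside the alpha class 3 of the 7 tested probes were called, where 16.8% of all tested probes were called at least once. Gstp1, the pi-class enzyme, drew the most counts of all 57 tested member probes. It stood at 5792, 6631, 6215, 10321 and 4321 CPM in control replicates 1 to 5. With folpet 16000 ppm it ran from 12261 over 15543 to 17386 CPM and with folpet 6000 ppm from 12089 over 12813 to 15142 CPM, all above the highest control. The log2 fold changes were 1.20 ± 0.20 (edgeR adjusted p = 2.76e-05) and 0.97 ± 0.20 (adjusted p = 0.00111), or 2.29-fold and 1.96-fold. With captan 6000 ppm it ran from 5664 over 12939 to 16481 CPM (log2 0.85 ± 0.20, adjusted p = 0.00536), and replicate 2 alone lay within the control range. The change with captan 12000 ppm was 0.64 ± 0.20 (adjusted p = 0.0420), and replicates 1, 2 and 6 were at 6521, 5675 and 8240 CPM against at least 12299 CPM in the other 4. This call was lost without any 1 of 8 libraries, namely control replicates 1, 2, 3 and 5 (adjusted p = 0.0697, 0.0551, 0.0666 and 0.130) and captan 12000 ppm replicates 3, 4, 5 and 7 (adjusted p = 0.105, 0.0694, 0.0744 and 0.0793). The captan 12000 ppm call held in 3 of 9 other settings of the fit, the captan 6000 ppm call in 7 and both folpet calls in 9. With Cr(VI) Gstp1 ran from 6389.6 to 8585 CPM, within the control range (log2 0.17 ± 0.20, adjusted p = 0.749). Mice carry near-identical Gstp genes, so the probe may read more than 1 of them.

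Of the mu-class enzymes, Gstm3 rose with captan 12000 ppm and folpet 16000 ppm and Gstm2 with folpet 16000 ppm. Gstm3 was tight in controls, at 209, 159.5, 152, 171 and 178 CPM. All 7 folpet 16000 ppm libraries lay above these, from 373 over 586 to 758 CPM (log2 1.68 ± 0.48, edgeR adjusted p = 0.0172). With captan 12000 ppm it ran from 69.1 over 868 to 1029 CPM (log2 1.78 ± 0.48, adjusted p = 0.0202). Replicates 1, 2 and 6 were low again, at 115, 69.1 and 274 CPM. All 7 captan 6000 ppm libraries also exceeded the highest control, from 232 to 721 CPM, but the change of 1.32 ± 0.47 did not pass (adjusted p = 0.100). Gstm2, at 263, 58.8, 70.8, 75.1 and 290.0 CPM in controls, rose with folpet 16000 ppm (182 over 372 to 526 CPM, log2 1.41 ± 0.42, adjusted p = 0.0203), and that call was lost without control replicate 2, 3 or 4 (adjusted p = 0.0647, 0.0608 and 0.0630). The 2 probes of Gstm7 were at most at 27.1 CPM and were not called in any comparison.

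UDP-glucuronosyltransferases join glucuronic acid to phenols, steroids and bilirubin. Over the 5 comparisons with control, 4 of the 11 tested were called higher and 1 lower. Of all tested probes 16.8% were called at least once. The member deposited under the symbol UGT2B15, for which RefSeq holds no mouse gene of that name, stood at 312, 172, 209, 187 and 128 CPM in controls. With folpet 16000 ppm it ran from 447 over 659.6 to 721 CPM and with captan 6000 ppm from 367 over 563 to 637 CPM, both above every control. The log2 fold changes were 1.61 ± 0.28 (3.05-fold, edgeR adjusted p = 7.60e-05) and 1.36 ± 0.28 (2.57-fold, adjusted p = 0.00193). It also rose with captan 12000 ppm (156 over 539 to 742 CPM, log2 1.27 ± 0.28, adjusted p = 0.00285) and folpet 6000 ppm (243 over 395 to 824 CPM, log2 1.13 ± 0.28, adjusted p = 0.00699), with overlap. These 4 calls held without each library in turn. Of 9 other settings of the fit, the folpet 16000 ppm call held in 9 and the captan 6000 ppm call in 7. The folpet 6000 ppm call held in 5 and the captan 12000 ppm call in 4. The calls other than folpet 16000 ppm were lost without libraries over 50% acinar and with the enterocyte marker sum as a covariate. With Cr(VI) the change was 0.26 ± 0.27 (adjusted p = 0.704).

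Ugt1a6a and Ugt1a7c are phenol-conjugating forms made from 1 gene locus with shared last exons. Of the 50-base windows of Ugt1a6a, 94.2% occur in Ugt1a7c and 53.0% in Ugt1a1. Of those of Ugt1a7c, 53.3% occur in Ugt1a6a. The probes may thus overlap in what they read. Ugt1a6a stood at 289, 261, 411, 353 and 399.9 CPM in controls. Folpet 16000 ppm took it to between 603 and 839 CPM with a median of 766 CPM, with no overlap (log2 1.07 ± 0.23, edgeR adjusted p = 0.000875). With captan 6000 ppm (365 over 535 to 883 CPM, log2 0.77 ± 0.23, adjusted p = 0.0327) and 12000 ppm (339 over 600.5 to 807 CPM, log2 0.79 ± 0.23, adjusted p = 0.0242) 6 of 7 libraries exceeded the highest control. The captan 6000 ppm call was lost without control replicate 1, 2 or 5 (adjusted p = 0.0635, 0.0700 and 0.0509) or captan replicate 4 or 7 (adjusted p = 0.0583 and 0.0773). The captan 12000 ppm call was lost without control replicate 2 or captan replicate 3 (adjusted p = 0.0556 and 0.0722). Ugt1a7c, at 166, 137, 148, 32.2 and 225 CPM in controls, rose with folpet 16000 ppm (252 over 364 to 539.6 CPM, no overlap, log2 1.41 ± 0.33, adjusted p = 0.00289) and captan 12000 ppm (206 over 356 to 404 CPM, log2 1.21 ± 0.33, adjusted p = 0.0191). Ugt1a1, the bilirubin-conjugating form of the same locus, was not called, with changes between -0.26 and 0.36.

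The upstream windows of Gstp1 and Ugt1a6a are shown because both genes rose with both fungicides and both hold a TGANTCA match, letters of the kind bound by AP-1 and related factors. They come from RefSeq (GRCm38.p6): chr19:4037967-4038074, minus strand, for Gstp1, a stretch that ends 55 bases before the start, and chr1:88134559-88134808, plus strand, for Ugt1a6a. Both are read 5′ to 3′ with the match in capitals.
Gstp1: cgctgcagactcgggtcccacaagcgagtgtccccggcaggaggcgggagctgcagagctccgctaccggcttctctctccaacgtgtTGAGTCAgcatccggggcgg
Ugt1a6a: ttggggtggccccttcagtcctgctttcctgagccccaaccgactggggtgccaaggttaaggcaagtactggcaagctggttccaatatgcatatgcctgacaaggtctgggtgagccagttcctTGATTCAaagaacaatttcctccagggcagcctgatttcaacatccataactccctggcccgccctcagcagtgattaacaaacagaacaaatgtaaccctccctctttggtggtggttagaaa
In Gstp1 the match, TGAGTCA, begins 74 bases before the annotated start. TGANTCA, searched on both strands, occurs in 6.75% of all 32851 windows, in 5 of 45 tested member genes with a window, and in 3 of the 13 of these that rose (Aldh1a1, Gstp1 and Ugt1a6a). It also occurs in 1 of the 3 with a window that fell, Ugt2b35, and in Gstm5, which was never called. The core TGACNNNGC of the antioxidant response element occurs in 10.2% of all windows, in 4 of the 45 and in 0 of the 13. The Gstp1 letters TGAGTCAgc differ from this core only in a G where it has C, so the search did not count them. The xenobiotic response element core GCGTG occurs in 28.2% of all windows, in 11 of the 45 and in 3 of the 13 (Cyp2b10, Gstp1 and Sult1b1). No match says only that the letters are not in this window.

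Ugt2b35 and Ugt2b36 were each called in 1 comparison. Ugt2b35 was the 1 member that fell with Cr(VI). It stood at 1087, 467, 864, 1139.5 and 843 CPM in controls and ran from 254 over 509.6 to 542 CPM with Cr(VI). All 7 libraries lay below the control mean and 3 below the lowest control (log2 -0.95 ± 0.28, edgeR adjusted p = 0.0383). That call was lost without any 1 of 7 libraries, namely control replicates 1, 3, 4 and 5 (adjusted p = 0.0926, 0.0578, 0.0889 and 0.0602) and Cr(VI) replicates 3, 4 and 6 (adjusted p = 0.0726, 0.0661 and 0.0643). All 7 Ugt2b35 values with folpet 16000 ppm exceeded the highest control, from 1211 to 1987 CPM, but the change of 0.72 ± 0.29 did not pass (adjusted p = 0.107). Ugt2b36 was near 0, at 20.8, 0, 6.42, 25.8 and 0 CPM in controls, and rose with folpet 16000 ppm (26.4 over 39.4 to 83.7 CPM, log2 1.99 ± 0.68, adjusted p = 0.0428). This call was lost without any 1 of 8 libraries, with adjusted p from 0.0511 to 0.0941: control replicates 2, 3 and 5 and folpet 16000 ppm replicates 1, 3, 4, 6 and 7.

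Sult1b1, a sulfotransferase of phenols and thyroid hormone, is 1 of 2 tested Sult probes; the other, Sult4a1, was near 0. Sult1b1 stood at 1569, 1969, 1527, 1052 and 880.0 CPM in controls. It rose at the 6000 ppm dose of both fungicides, from 1999 over 2298 to 2842 CPM with folpet, above every control (log2 0.76 ± 0.18, edgeR adjusted p = 0.00341), and from 1677 over 2266 to 3489 CPM with captan (log2 0.78 ± 0.18, adjusted p = 0.00379). Both calls held without each library in turn. With library totals alone both were lost (edgeR adjusted p = 0.155 with captan and 0.204 with folpet). The same held with the acinar share as a covariate (adjusted p = 0.111 and 0.0870). They were also lost without libraries over 50% acinar and with the enterocyte marker sum as a covariate. At the higher doses Sult1b1 was short of the threshold, at 0.52 ± 0.18 with captan 12000 ppm (adjusted p = 0.0656) and 0.38 ± 0.18 with folpet 16000 ppm (adjusted p = 0.154). The folpet dose step itself was -0.38 (95% interval -0.70 to -0.06, adjusted p = 0.296), which did not pass.

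**Figure D4:**
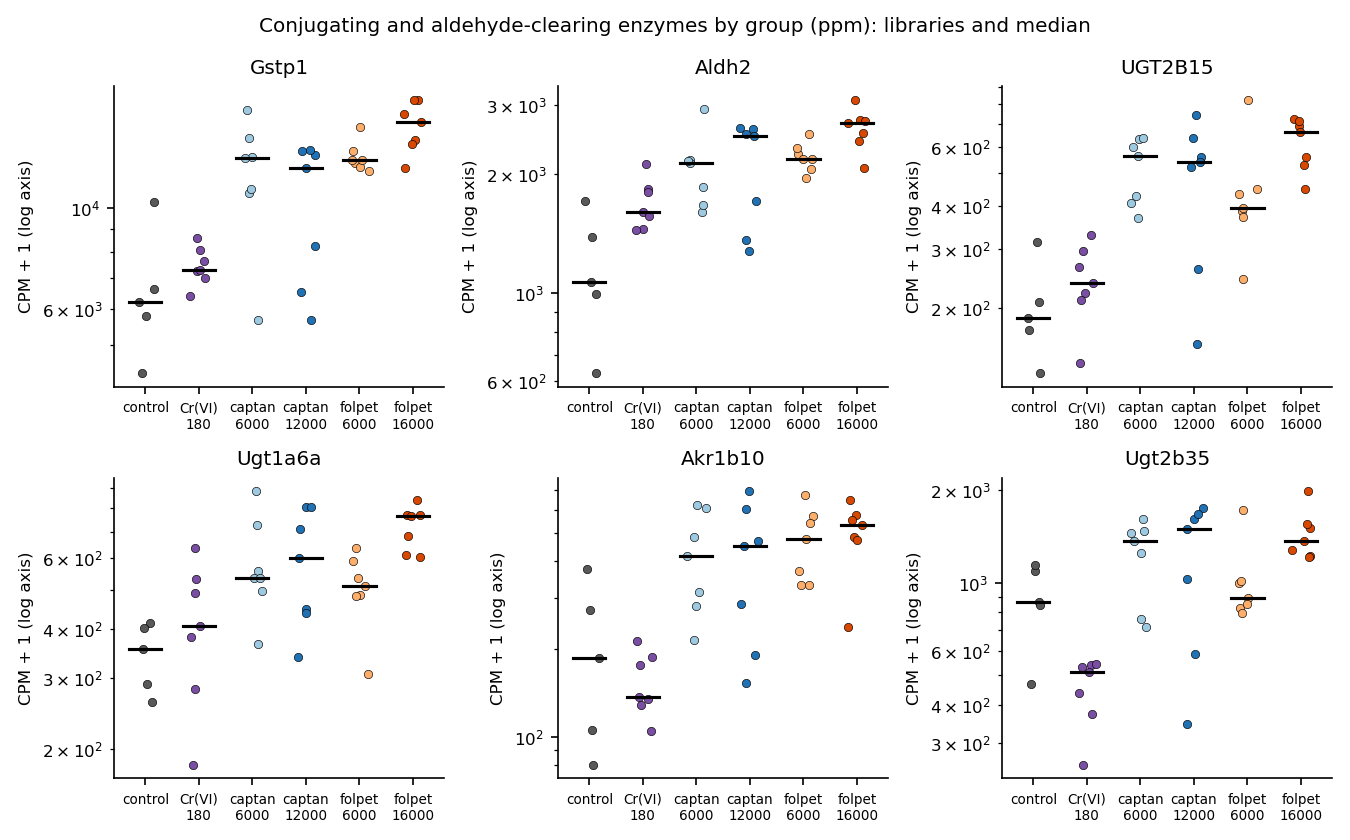
Level of 6 conjugating or aldehyde-clearing members (CPM + 1, log axis) in each library (points) by exposure group, with the group median as a bar. Gstp1, Aldh2, UGT2B15 and Ugt1a6a with folpet 16000 ppm lie above every control, and Ugt2b35 with Cr(VI) lies at 254 to 542 CPM, with 3 of 7 libraries below the lowest control.

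How far these calls move with marker levels in the fit can be given as values. The enterocyte sum was mostly Fabp2, Fabp1 and Apoa1, with means of 44415, 14451 and 9971 CPM over all libraries. Of its 6 markers 2 to 4 rose in each exposed group. Cell make-up and a response of the markers to exposure thus cannot be told apart with this covariate. With the summed level of the 6 enterocyte markers as a covariate, an alternative added after the data were seen, 8 of the 41 gene calls remained: Gstp1 and Aldh2 with both folpet doses, UGT2B15, Cyp3a41a and Cyp3a41b with folpet 16000 ppm, and Ugt2b35 with Cr(VI). The log2 change of Gstp1 with folpet 16000 ppm was then 0.89 (edgeR adjusted p = 0.0179) and that of Aldh2 0.86 (adjusted p = 0.00980). Cyp2b10 with captan 12000 ppm went to 0.64 (adjusted p = 0.515) and Ces2b with Cr(VI) to 0.49 (adjusted p = 0.143). With the acinar share as a covariate 18 calls remained, and without the 7 libraries over 50% acinar 19 remained. In a fit to captan 12000 ppm and control libraries alone, 0 members and 29 of 2207 probes were called. With all groups sharing 1 estimate of spread, 12 members and 157 of 2541 probes were called at that dose. There 23 members had an unadjusted p under 0.05, a count not made over all probes. DESeq2 called 19 members and 268 of 1938 probes. The calls of Gstp1 and Aldh2 with both folpet doses and of UGT2B15 with folpet 16000 ppm held under every alternative tried.

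Dose steps within a fungicide passed the test for none of these enzymes in edgeR. Between captan 6000 and 12000 ppm 0 of 57 members were called by edgeR, where 0% of all 2541 probes were called. An unadjusted p under 0.05 was found for 4 members. DESeq2 and limma-voom called 0 members, and 1 of 2855 and 0 of 2541 probes. The median member change was 0.01. Between folpet 6000 and 16000 ppm 0 members were called by edgeR, where 1.73% of all probes were called, 0.590% higher and 1.14% lower. An unadjusted p under 0.05 was found for 10 members. DESeq2 and limma-voom each called 1 member, with 71 of 1994 and 66 of 2541 probes called. A fit to the folpet groups alone called 4 members and 113 of 2217 probes. The median member change was 0.32. The intervals bound what could have been missed: the folpet step was 0.23 for Gstp1 (95% interval -0.13 to 0.59), 0.24 for Aldh2 (-0.09 to 0.57), 0.51 for Ugt1a6a (0.10 to 0.92, adjusted p = 0.247) and 1.03 for Gstm3 (0.18 to 1.88, adjusted p = 0.277). The captan step was -0.21 for Gstp1 (-0.57 to 0.15), 0.52 for Cyp2b10 (-0.11 to 1.15) and -0.09 for UGT2B15 (-0.59 to 0.40).

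Captan and folpet, which differ in the saturation of the imide's ring, were compared at the dose they share, 6000 ppm. Of the 57 members 0 differed by edgeR, where 0.157% of all probes were called. An unadjusted p under 0.05 was found for 5 members. DESeq2 and limma-voom called 0 members, and 15 of 2855 and 13 of 2541 probes. Each value below is captan minus folpet on the log2 scale. For Gstp1 it was -0.12 (95% interval -0.48 to 0.25), for Aldh2 -0.09 (-0.42 to 0.24), for Sult1b1 0.02 (-0.30 to 0.34) and for Ces2b 0.18 (-0.15 to 0.51). Intervals were wider for Cyp2b10, 0.30 (-0.33 to 0.92), Gstm3, 0.67 (-0.18 to 1.51), and Ugt2b36, 0.42 (-0.73 to 1.57). Among the 5 with an unadjusted p under 0.05, Ces2g stood at 0.69 (0.18 to 1.21) and Cyp2c55 at 1.64 (0.38 to 2.90), with edgeR adjusted p = 0.437 and 0.469. These were named after their values were seen. A difference that misses the threshold does not show that the compounds act alike. The highest doses differ, 12000 ppm for captan and 16000 ppm for folpet, and are given side by side above without a comparison.

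**Figure D5:**
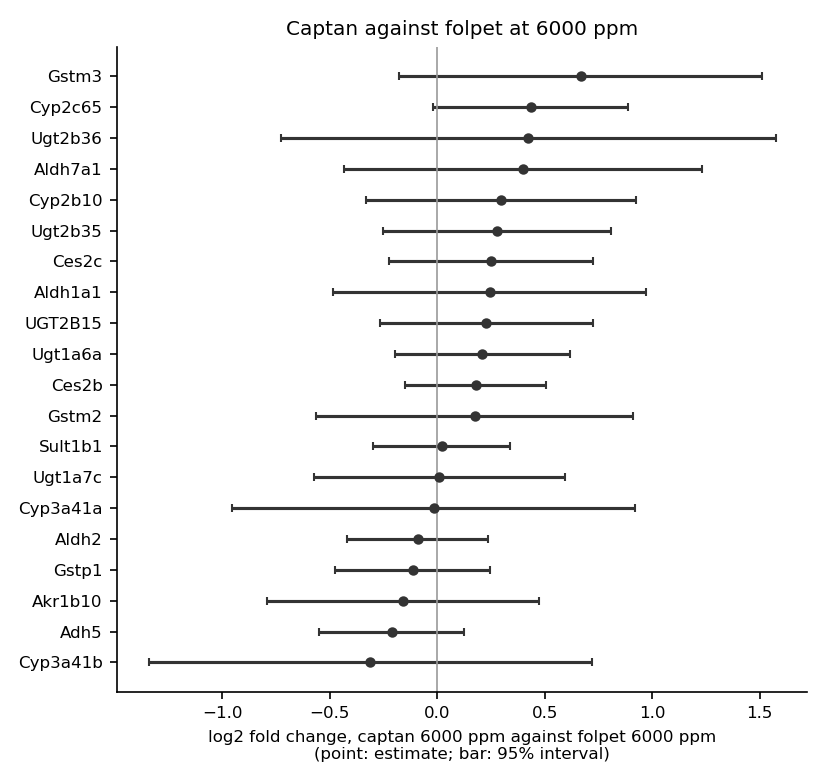
Captan minus folpet at 6000 ppm (log2 fold change, point, with 95% interval) for the 20 members called in any comparison with control. Every interval includes 0; Sult1b1 and Aldh2 have among the narrowest and Cyp3a41b and Ugt2b36 the widest.

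Genes of the same pathway that are no members were taken by lists. Of 15 tested receptors and regulators, Nr1i3, which encodes CAR, rose in all 5 comparisons with control, by 0.87 ± 0.17 with Cr(VI) to 1.52 ± 0.18 with folpet 16000 ppm (edgeR adjusted p = 0.00104 and 2.41e-08). Ppara rose with Cr(VI) and folpet 6000 ppm, Nr1i2 (PXR) with folpet 6000 ppm and Cebpb with folpet 16000 ppm. Ahr and Nfe2l2 were not called. Por, which feeds electrons to every microsomal P450, rose in all 5, by 0.83 ± 0.19 to 1.41 ± 0.19. Of 13 other oxidation, hydrolysis and conjugation enzymes 2, 8, 8, 7 and 9 rose with Cr(VI), captan 6000 and 12000 ppm, and folpet 6000 and 16000 ppm. Ugdh, which makes the glucuronic acid donor of the Ugt enzymes, rose in all 5, by 0.97 ± 0.29 with Cr(VI) to 2.40 ± 0.31 with folpet 16000 ppm. Of 6 efflux pumps, Abcb1a rose in all 5 and Abcc3 in the 4 fungicide comparisons. The excluded relative Cyp2c29 rose with captan 6000 ppm (3.46 ± 0.97) and 12000 ppm (5.06 ± 1.06); Ces1g and Cyp2a5 rose with both fungicides at both doses and Aldh3a2 in all 5 comparisons.

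Of the 28 member probes that were not tested, 9 were at 0 in all 40 libraries: Ugt1a10, Cyp2c54, Cyp11b1, Cyp24a1, Cyp4a14, Cyp4f37, Cyp7a1, Sult2a3 and Sult2a4. The other 19 were above 0 in at most 5 libraries and include steroid-forming P450s such as Cyp11a1, the liver alcohol dehydrogenase Adh1 and the sulfotransferases Sult2a1 and Sult3a1. Zeros made up 28.5% of all deposited values, but among values above 0 only 1.01% lay from 1 to 5 counts and 2.93% from 21 to 25, so a 0 in a library says little about a low transcript.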

How the data were processed

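TempO-Seq libraries of mouse duodenum were counted per probe, and the authors deposited 1 table of raw counts. Per the submitters' processing notes, reads were demultiplexed with bcl2fastq 2.17.1.14 and aligned with Bowtie, and the genome build named is mm9. Other settings of these steps are unknown here. Groups came from the labels.

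Counts were tested with edgeR 4.0.16 in R 4.3.3 (TMM factors, filterByExpr with a minimum count of 10 and a minimum total of 15, robust quasi-likelihood fit over all 40 libraries, 34 residual degrees of freedom), with Benjamini-Hochberg adjustment over the 2541 tested probes and a threshold of 0.05. Standard errors and 95% intervals were derived from the F statistics. CPM uses TMM-scaled library sizes. DESeq2 1.42.0 and limma-voom (limma 3.58.1) were alternatives, beside other scaling, no filter, the compared groups alone, marker covariates and each library left out. The fit was tested on simulated counts.

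The members and lists were chosen with earlier results of these data known. Named were every called member (the 6 largest rises and falls where over 12 were called), the member with the most counts in each family and textbook members. Promoter windows came from RefSeq (GRCm38.p6), and 63 member symbols had a window. Transcripts for the shared 50-base windows were the protein-coding mouse entries of GENCODE. Probe positions were not used here.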

Additional observations from a re-analysis of the deposited data

Results flagged for a closer look

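For 30 named members, each of the 6 groups was searched for a library that lies far from the others of its group, which gave 19 flags among 180 groups of libraries. On normally distributed values the cut-off used flags about 1 in 20 groups. Levels with many zeros need not follow that rate, and the members share libraries, so the 19 flags cannot be set against it.

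In controls, replicate 5 was lowest and apart for Ces2b at 1360 CPM, Cyp2b10 at 904 CPM and Cyp51 at 0 CPM, and replicate 4 for Ugt1a7c at 32.2 CPM. With Cr(VI), replicate 3 was lowest for Cyp2b10 at 1640 CPM and replicate 6 for Ugt2b36 at 0 CPM. With captan 6000 ppm, replicate 2 was lowest for Gstp1 at 5660 CPM and highest for Cyp3a11 at 1150 CPM, replicate 3 was highest for Adh5 at 1200 CPM, and replicate 7 was highest for Cyp1b1 at 1.63 CPM. With captan 12000 ppm, replicate 1 was lowest for Akr1b8 at 0 CPM and replicate 5 highest for Cyp1b1 at 5.17 CPM. With folpet 6000 ppm, replicate 1 was lowest for Adh5 at 684 CPM and highest for Ugt2b35 at 1730 CPM, and replicate 5 was lowest for Ugt1a6a at 306 CPM. With folpet 16000 ppm, replicate 2 was lowest for Akr1b10 at 237 CPM, Gstm2 at 182 CPM and Cyp2c65 at 1040 CPM, and replicate 3 was highest for Cyp1b1 at 6.10 CPM.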

How the results depend on the processing

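The counts of called members (2, 6, 12, 6 and 15 for Cr(VI), captan 6000 and 12000 ppm, and folpet 6000 and 16000 ppm against control) depended on the fit, and the cause was not tested. Of all 2541 tested probes the main fit called 151, 131, 157, 158 and 320. With library totals alone the member counts were 0, 3, 6, 3 and 4, and 14, 32, 79, 51 and 57 of all probes were called. DESeq2 gave 5, 14 and 19 for Cr(VI) and captan 6000 and 12000 ppm, and limma-voom gave 6 for captan 12000 ppm. Over all probes DESeq2 called 240 of 1938, 216 of 1771 and 268 of 1938 there, and limma-voom 139 of 2541. A fit to the compared groups alone gave for captan 6000 and 12000 ppm 2 and 0, with 29 of 2243 and 29 of 2207 probes called. With the acinar share as a covariate captan 6000 and 12000 ppm and folpet 6000 ppm gave 3, 1 and 3. Over all 2541 probes that fit called 74, 82 and 100. Without the libraries over 50% acinar Cr(VI) and captan 6000 and 12000 ppm gave 1, 3 and 4. Over all 2620 probes tested in that fit, 47, 63 and 90 were called. With the enterocyte marker sum as a covariate, added after the data were seen, the 5 counts were 1, 0, 1, 3 and 6. Over all 2541 probes they were 103, 14, 38, 94 and 138. The folpet dose step went from 0 to 1 with DESeq2, limma-voom and the enterocyte covariate, and to 4 with the compared groups alone. Over all probes these called 71 of 1994, 66 of 2541, 66 of 2541 and 113 of 2217. The main fit called 44 of 2541. With 1 library left out, the counts ran from 1 to 3, 4 to 10, 7 to 16, 4 to 7 and 12 to 17.

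The log2 fold change of Aldh7a1 with captan 12000 ppm turned from -1.66 to 0.0814 with the acinar covariate. Of the 41 gene calls, 40 remained with DESeq2 size factors, 15 with library totals, 41 without the filter, 41 with DESeq2 and 30 with limma-voom, and 424 of 492 checks with 1 library left out kept the call. The summed CPM ratio for Cr(VI), 1.13, was 0.941 with library totals, 1.01 with acinar genes left out of the total and 1.04 to 1.20 with 1 library left out. For captan 6000 ppm the ratio was 2.05 with library totals and 1.29 without acinar genes against 1.63. For captan 12000 ppm it was 2.21 with library totals and 1.32 without acinar genes against 1.71. For folpet 6000 ppm it was 1.91 with library totals and 1.23 without acinar genes against 1.56. For folpet 16000 ppm it was 1.73 with library totals and 1.22 without acinar genes against 1.74. No paired analysis was possible because the labels give no replicate numbers that tie libraries across groups.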
